A study of Rattus norvegicus with 20 samples.

Results

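The genes described here encode the proteasome, the large protease that degrades proteins tagged with ubiquitin, together with its activators and its assembly factors. They were taken as the probe sets with exactly 1 gene symbol of the form Psma, Psmb, Psmc, Psmd, Psme, Psmf or Psmg followed by a number, with symbols marked as pseudogenes (-ps) left out. The rule found 58 probe sets of 54 genes among 22093 named genes, and where a gene had several probe sets, the brightest one was used. Of the 54 genes, 50 passed the filter on dim genes (a mean log2 value of at least 4.97), which 15465 genes passed in all. Psma8, Psmb3l1, Psme1l1 and Psmg4l1 did not pass. Psma8 is a testis form of an alpha subunit, and the current gene table lists Psme1l1 as a pseudogene. Psmc3ip (a factor of meiotic recombination), Psme3ip1 (a protein that binds the activator Psme3) and the family copy Psmb3l2 match the rule and passed. They are described apart from the subunits below, but counts and medians over the 50 genes include them.

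The proteasome core is a barrel of stacked rings, with alpha subunits (Psma) in the outer rings that gate the entry and beta subunits (Psmb) in the inner rings that cut peptide bonds. The cap holds a ring of ATPases (Psmc), which unfold the substrate and feed it into the barrel, and non-ATPase subunits (Psmd) that bind ubiquitin chains, remove them or hold the cap together. In neurons, proteasomes are known to move into dendritic spines with activity, and protein breakdown at synapses is needed for lasting changes in synaptic strength.

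Gene expression was measured on arrays with RNA from the ventral hippocampus of male Sprague-Dawley rats aged 2 months. The synaptoneurosome mimic group and the homogenate mimic group came from rats injected on both sides with 200 pmol of a mimic of miR-17-5p, a small RNA that represses messenger RNAs, in 1.5 µl. The synaptoneurosome control group and the homogenate control group came from rats injected with a scrambled small RNA. Synaptoneurosomes are resealed synaptic endings enriched by fractionation, and homogenate is the whole tissue extract. Each of the 4 groups held 5 arrays. The labels name neither the time between injection and dissection nor separate animals for the arrays of a group, so the p-values reflect the spread among these arrays only, which may be technical. Homogenate RNA was purified on spin columns and synaptoneurosome RNA was precipitated with isopropanol, per the labels' protocols, so fraction and purification cannot be told apart. In bulk samples, fewer cells of a type and less RNA per cell cannot be told apart either.

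The mature miR-17-5p of the rat is shown because a mimic of it was injected in the mimic groups and not in the control groups. It is credited to RefSeq (GRCr8), which places it at 15:98587861-98587883 on the plus strand and, with the same letters, at X:137343615-137343637 on the minus strand. Its seed, bases 2 to 8, is in capitals.
rno-miR-17-5p: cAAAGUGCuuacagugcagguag

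Proteasome genes are known to share an activator, NFE2L1, which binds antioxidant response elements in their promoters. The core letters of that element, TGACNNNGC on either strand, were looked for in windows from 250 bases before to 50 bases after the gene start in RefSeq promoters (GRCr8). They were found in 8 of the 47 members that matched a promoter (17%) and in 6 of 27 core and cap genes (22.2%), against 12.2% of all 27457 promoters. The CCAAT box (CCAAT, either strand) was in 48.9% of the 47 and in 37.7% of all, and the GC box (GGGCGG, either strand) in 68.1% of the 47 and in 34.9% of all. Each motif was counted on its own, also where it overlaps another, and a match describes the window and is not a binding site. Windows around the first motif are shown for 4 core genes that fell in synaptoneurosomes of mimic rats, read 5′ to 3′ on the gene's strand. The capitals mark the motif, which in Psma3 is its reverse complement.
Psma3, 6:95219707-95219748, plus strand: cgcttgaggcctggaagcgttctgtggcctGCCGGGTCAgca
Psmb2, 5:144254960-144255028, plus strand: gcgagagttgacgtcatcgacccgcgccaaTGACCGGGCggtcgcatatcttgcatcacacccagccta
Psmb5, 15:32047401-32047469, minus strand: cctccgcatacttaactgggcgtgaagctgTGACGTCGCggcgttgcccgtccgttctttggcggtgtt
Psmb6, 10:55737834-55737887, plus strand: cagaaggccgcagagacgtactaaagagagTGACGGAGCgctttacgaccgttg

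Most genes of the core and the cap had lower levels in synaptoneurosomes than in homogenate: 30 of 31 tested core and cap genes fell in mimic rats and 23 of 31 in control rats. In mimic rats, 36 of the 50 genes fell and 0 rose (limma, adjusted p below 0.05), against 30.8% of all tested genes lower and 11.0% higher. In control rats, 28 fell and 1 rose, against 28.0% of all tested genes lower and 11.8% higher. The median log2 difference of the 50 genes was -0.77 in mimic rats and -0.46 in control rats, while the median of all tested genes was -0.08 in mimic rats and -0.06 in control rats. The 28 genes that fell in control rats are 100% of that list and 77.8% of the 36 that fell in mimic rats. These shares describe the members alone. The immunoproteasome subunits and most activators did not pass in the lower direction, and they are given by role below.

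Whole arrays differed in spread. The median SD over genes was 0.17 in synaptoneurosome mimic arrays and 0.11 in homogenate mimic arrays, and it was 0.21 in synaptoneurosome control arrays and 0.12 in homogenate control arrays. Synaptoneurosome mimic array 5 and synaptoneurosome control arrays 4 and 5 stood apart on the first component of the spread within groups, which held 52.2% of it. Interneuron markers (7 genes) averaged 10.25 in the first of these arrays and 10.23 and 10.69 in the other two, against 8.72 to 9.16 in the other 7 synaptoneurosome arrays and 9.31 to 9.83 in the homogenate arrays. Without these 3 arrays, 39 of the 50 genes passed in mimic rats and 35 in control rats, counting either direction. Psmb8 was among them as higher in both treatments.

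Endothelial markers moved with the fraction: 6 of 6 fell in both treatments, and their mean level per array was 6.02 to 6.12 in synaptoneurosome mimic, 8.22 to 8.54 in homogenate mimic, 6.01 to 6.59 in synaptoneurosome control and 8.10 to 8.66 in homogenate control arrays. Of 8 markers of mural cells and fibroblasts, 5 fell in mimic rats and 4 in control rats. These markers averaged 7.93 and 7.91 in synaptoneurosome control arrays 2 and 5, against 6.94 to 7.05 in the other 3 arrays of that group. Of 7 interneuron markers, 4 fell and 0 rose in mimic rats (median log2 difference -0.89), and 0 fell and 1 rose in control rats (median -0.14). Of 10 microglial markers, 3 rose in mimic rats and 5 in control rats, and of 7 astrocyte markers, 4 rose in each. Of 6 markers of excitatory neurons, the main cells of the tissue, 3 fell and 1 rose in each treatment, with median log2 differences of -0.67 in mimic rats and -0.68 in control rats. They averaged 12.83 to 13.02 in synaptoneurosome mimic and 13.58 to 13.72 in homogenate mimic arrays, and 12.72 to 13.18 in synaptoneurosome control and 13.41 to 13.86 in homogenate control arrays, with no overlap between fractions. Of 7 small nucleolar RNAs, which stay in the nucleus, 6 fell in each treatment. The part of these cell types and of nuclear RNA in the differences of the proteasome genes was not tested.

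**Figure D1:**
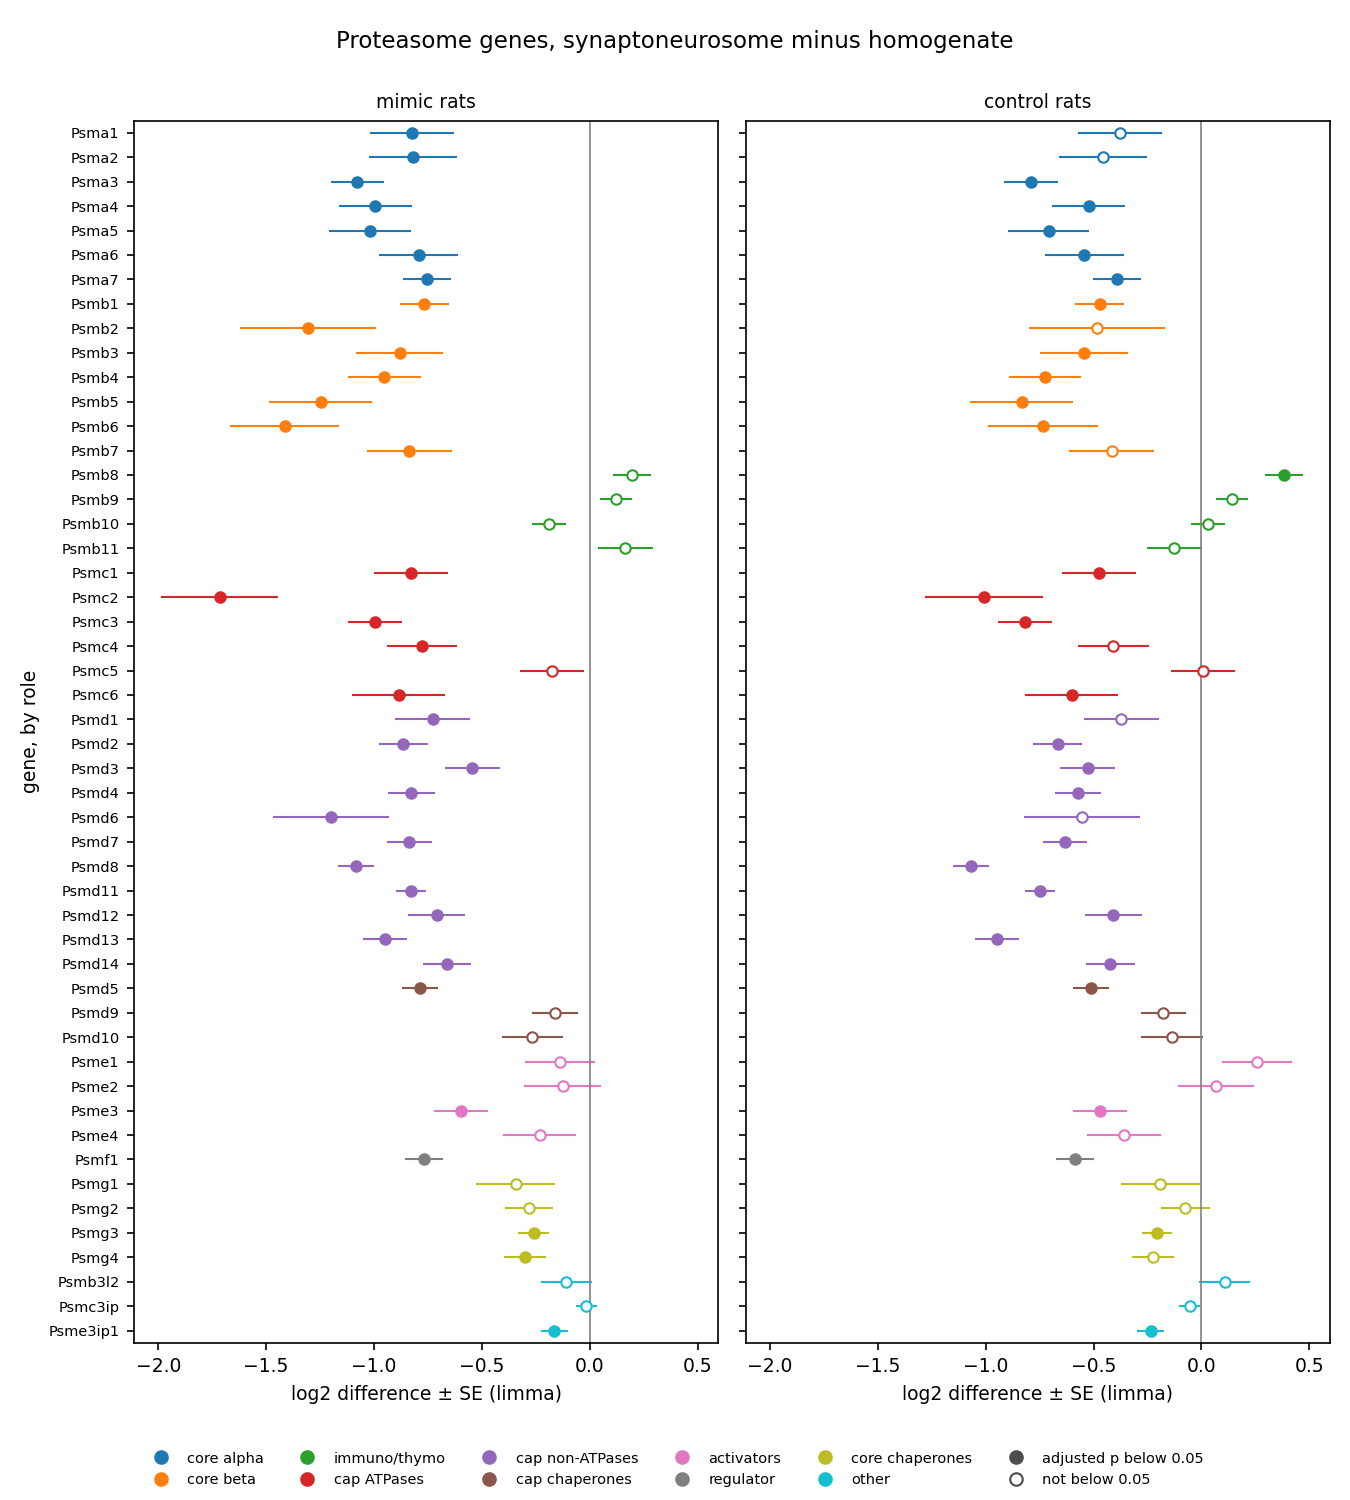
Log2 differences (x axis, limma estimate ± SE, 5 against 5 arrays) of the 50 tested genes, synaptoneurosome minus homogenate, in mimic rats on the left and in control rats on the right, with genes by role down the page. Filled points have an adjusted p below 0.05: 36 of 50 genes in mimic rats and 29 of 50 in control rats, all to the left of 0 except Psmb8 in control rats.

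The alpha ring had 7 tested genes, and all 7 fell in mimic rats with a median log2 difference of -0.82. In control rats 5 of the 7 fell, with a median of -0.52, and Psma1 and Psma2 did not pass (log2 differences -0.38 ± 0.19 and -0.46 ± 0.21, adjusted p = 0.132 and 0.085). With replicate numbers as a block, Psma2 passed in control rats. In mimic rats, Psma3, whose product sits in the ring that gates the barrel, read 9.49, 9.26, 9.29, 9.28 and 9.76 in synaptoneurosomes, against 10.58, 10.35, 10.50, 10.63 and 10.41 in homogenate. In control rats, Psma3 read 9.40, 9.80, 9.35, 9.81 and 10.07 in synaptoneurosomes, against 10.61, 10.48, 10.33, 10.47 and 10.49 in homogenate. No synaptoneurosome array of either treatment reached the lowest homogenate array. Psma3 had a log2 difference of -1.08 ± 0.12 in mimic rats (limma, adjusted p = 2.28e-06) and -0.79 ± 0.12 in control rats (adjusted p = 7.14e-05). In mimic rats, Psma7, another alpha subunit, read 7.41, 7.65, 7.40, 7.42 and 7.47 in synaptoneurosomes, against 8.15, 8.20, 8.03, 8.56 and 8.18 in homogenate. In control rats, Psma7 read 7.70, 8.02, 7.39, 7.57 and 7.93 in synaptoneurosomes, against 8.14, 8.18, 7.95, 8.20 and 8.10 in homogenate. The arrays of Psma7 did not overlap in mimic rats and overlapped in control rats, where synaptoneurosome arrays 2 and 5 were the closest to homogenate. Psma7 had a log2 difference of -0.75 ± 0.11 in mimic rats (limma, adjusted p = 3.14e-05) and -0.39 ± 0.11 in control rats (adjusted p = 0.00905). With quantile scaling its value in control rats was -0.23 and did not pass.

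The constitutive beta ring had 7 tested genes. All 7 fell in mimic rats, with a median log2 difference of -0.95, and 5 fell in control rats, with a median of -0.54. Psmb2 and Psmb7 did not pass in control rats. Psmb2 had log2 differences of -1.31 ± 0.32 in mimic rats (adjusted p = 0.00273) and -0.49 ± 0.32 in control rats (adjusted p = 0.228). The 3 catalytic subunits of this ring are Psmb5 (chymotrypsin-like activity), Psmb6 (caspase-like activity) and Psmb7 (trypsin-like activity).

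In mimic rats, Psmb5 read 9.56, 10.08, 9.44, 9.30 and 9.90 in synaptoneurosomes, against 10.73, 10.75, 10.55, 11.48 and 11.01 in homogenate. In control rats, Psmb5 read 9.65, 10.55, 9.41, 9.45 and 10.69 in synaptoneurosomes, against 10.74, 10.70, 10.63, 10.81 and 11.03 in homogenate. In mimic rats the groups did not overlap, and in control rats synaptoneurosome arrays 2 and 5 lay within or near the homogenate range. Psmb5 had a log2 difference of -1.25 ± 0.24 in mimic rats (limma, adjusted p = 0.000399) and -0.83 ± 0.24 in control rats (adjusted p = 0.01). In mimic rats, Psmb6 read 8.15, 8.37, 8.07, 8.16 and 8.44 in synaptoneurosomes, against 9.36, 9.55, 9.18, 10.52 and 9.65 in homogenate. In control rats, Psmb6 read 8.34, 9.34, 7.87, 8.33 and 9.16 in synaptoneurosomes, against 9.30, 9.41, 8.96, 9.51 and 9.53 in homogenate. Homogenate mimic array 4 was the highest of the 20 arrays for Psmb6, and synaptoneurosome control arrays 2 and 5 overlapped the homogenate arrays. Psmb6 had a log2 difference of -1.41 ± 0.25 in mimic rats (limma, adjusted p = 0.000224) and -0.73 ± 0.25 in control rats (adjusted p = 0.0281). The call in control rats held in 4 of 10 fits that left out 1 array. In mimic rats, Psmb7 read 11.96, 11.73, 11.83, 11.76 and 12.27 in synaptoneurosomes, against 12.75, 12.70, 12.40, 13.0 and 12.88 in homogenate. In control rats, Psmb7 read 12.17, 12.10, 11.36, 12.39 and 12.78 in synaptoneurosomes, against 12.73, 12.55, 12.15, 12.72 and 12.73 in homogenate. Psmb7 had no overlap in mimic rats, while in control rats synaptoneurosome array 5 was above every homogenate array. Psmb7 had a log2 difference of -0.84 ± 0.20 in mimic rats (limma, adjusted p = 0.00223) and -0.42 ± 0.20 in control rats (adjusted p = 0.0989). With replicate numbers as a block Psmb7 passed in control rats, as it did with quantile scaling (-0.53), with array weights (-0.65) and without the 3 arrays that stood apart (-0.70).

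The immunoproteasome subunits Psmb8, Psmb9 and Psmb10 replace the catalytic subunits Psmb5, Psmb6 and Psmb7 in immune cells and after interferon. Psmb11 is a subunit of the thymus form. None of the 4 fell in either treatment. Their log2 differences ran from -0.19 to 0.19 in mimic rats and from -0.13 to 0.38 in control rats. In mimic rats, Psmb8 read 5.98, 5.90, 6.05, 6.10 and 5.82 in synaptoneurosomes, against 5.93, 5.79, 5.82, 5.78 and 5.56 in homogenate. In control rats, Psmb8 read 6.13, 6.27, 6.0, 5.97 and 5.76 in synaptoneurosomes, against 5.76, 5.66, 5.56, 5.56 and 5.67 in homogenate. Every synaptoneurosome control array was at or above the highest homogenate control array for Psmb8, and the mimic groups overlapped. Psmb8 had a log2 difference of 0.19 ± 0.09 in mimic rats (limma, adjusted p = 0.0834) and 0.38 ± 0.09 in control rats (adjusted p = 0.00205). Psmb8 rose in control rats, and a dimmer probe set of the gene had log2 differences of 0.13 in mimic rats and 0.23 in control rats. The mean of that dimmer set over the 20 arrays, 4.96, was below the filter. By the brightest set, Psmb8 also passed in mimic rats with quantile scaling, with array medians set to 0, with array weights and without the 3 arrays that stood apart, at log2 differences of 0.19 to 0.30.

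In mimic rats, Psmb9 read 4.78, 5.13, 5.05, 5.17 and 5.0 in synaptoneurosomes, against 5.05, 4.86, 4.85, 4.87 and 4.89 in homogenate. In control rats, Psmb9 read 5.12, 5.23, 4.97, 5.05 and 5.11 in synaptoneurosomes, against 5.01, 4.84, 5.09, 4.84 and 4.99 in homogenate. The arrays of Psmb9 overlapped in both treatments. Its log2 difference was 0.12 ± 0.08 in mimic rats (adjusted p = 0.207) and 0.14 ± 0.08 in control rats (adjusted p = 0.142). Its mean over the 20 arrays was just above the filter and both homogenate means (4.90 in mimic and 4.95 in control rats) were below it, so Psmb9 entered the tests through its synaptoneurosome arrays and its values are given as a description. In mimic rats, Psmb10 read 5.96, 6.04, 5.98, 5.92 and 6.08 in synaptoneurosomes, against 5.98, 6.12, 6.06, 6.45 and 6.32 in homogenate. In control rats, Psmb10 read 6.05, 6.22, 6.13, 6.01 and 6.16 in synaptoneurosomes, against 5.95, 6.05, 6.21, 6.05 and 6.16 in homogenate. The arrays of Psmb10 overlapped as well. Its log2 difference was -0.19 ± 0.08 in mimic rats (adjusted p = 0.0638) and 0.03 ± 0.08 in control rats (adjusted p = 0.785), and it passed as lower in mimic rats without the 3 arrays that stood apart (-0.21). In mimic rats, Psmb11 read 7.03, 7.20, 7.01, 7.21 and 6.86 in synaptoneurosomes, against 6.59, 6.75, 7.16, 7.24 and 6.75 in homogenate. In control rats, Psmb11 read 7.10, 7.03, 6.87, 6.83 and 6.64 in synaptoneurosomes, against 7.08, 6.67, 7.13, 7.14 and 7.08 in homogenate. These arrays also overlapped, with log2 differences of 0.16 ± 0.13 in mimic rats (adjusted p = 0.32) and -0.13 ± 0.13 in control rats (adjusted p = 0.448), and with quantile scaling Psmb11 passed as higher in mimic rats (0.35).

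Genes that load the peptides of the immunoproteasome were counted beside these subunits. Of 6 tested genes of antigen processing, 2 rose and 1 fell in mimic rats, and 3 rose and 0 fell in control rats. Among all tested genes, 11.0% rose and 30.8% fell in mimic rats, and 11.8% rose and 28.0% fell in control rats. B2m, the light chain of class I molecules, rose by 0.71 ± 0.19 in mimic rats (adjusted p = 0.00692) and 1.07 ± 0.19 in control rats (adjusted p = 0.000302) on the log2 scale. Erap1, a peptidase that trims peptides for class I molecules, rose by 0.79 ± 0.16 in mimic rats (adjusted p = 0.000558) and 0.87 ± 0.16 in control rats (adjusted p = 0.000264). Tap1, the peptide transporter, rose by 0.17 ± 0.06 in control rats (adjusted p = 0.0227), and Irf1, an interferon-regulated transcription factor, fell by 0.25 in mimic rats (SE 0.08, adjusted p = 0.0135). The mean level of the 10 microglial markers, which moved beside them, was 8.02 to 8.59 in synaptoneurosome mimic, 7.84 to 8.28 in homogenate mimic, 7.89 to 8.89 in synaptoneurosome control and 7.68 to 7.91 in homogenate control arrays; its part in these values was not tested.

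The ATPase ring of the cap had 6 tested genes, of which 5 fell in mimic rats and 4 in control rats, with median log2 differences of -0.86 in mimic rats and -0.54 in control rats. Psmc2 had the lowest log2 difference of all 50 genes in mimic rats, and Psmc5 was the one gene of the core and cap that did not pass there. Both were chosen for values by array after their values were seen. In mimic rats, Psmc2 read 9.42, 9.91, 9.40, 9.26 and 9.71 in synaptoneurosomes, against 11.08, 11.07, 10.90, 12.12 and 11.11 in homogenate. In control rats, Psmc2 read 9.27, 10.58, 9.21, 9.63 and 10.70 in synaptoneurosomes, against 10.79, 10.98, 10.64, 10.97 and 11.05 in homogenate. The mimic groups did not overlap, and synaptoneurosome control array 5 reached into the homogenate range. Psmc2 had a log2 difference of -1.72 ± 0.27 in mimic rats (limma, adjusted p = 6.96e-05) and -1.01 ± 0.27 in control rats (adjusted p = 0.007). In mimic rats, Psmc5, the ATPase that CaMKII is known to phosphorylate in rat neurons, read 9.61, 9.64, 9.46, 9.49 and 9.34 in synaptoneurosomes, against 9.61, 9.50, 9.37, 10.04 and 9.90 in homogenate. In control rats, Psmc5 read 9.78, 9.79, 9.54, 9.01 and 9.93 in synaptoneurosomes, against 9.51, 9.54, 9.48, 9.71 and 9.78 in homogenate. The groups of Psmc5 overlapped in both treatments. Its log2 difference was -0.18 ± 0.15 in mimic rats (adjusted p = 0.362) and 0.01 ± 0.15 in control rats (adjusted p = 0.979). The other 5 ATPases spanned -1.72 to -0.78 in mimic rats, with Psmc4 at the upper end. Psmc4 did not pass in control rats (log2 difference -0.41 ± 0.16, adjusted p = 0.0554), and it passed with replicate numbers as a block.

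The non-ATPase subunits of the cap had 11 tested genes. All 11 fell in mimic rats, with a median log2 difference of -0.83 and a range from -1.20 (Psmd6) to -0.54 (Psmd3). In control rats 9 of the 11 fell, with a median of -0.57. Psmd1 and Psmd6 did not pass there (log2 differences -0.37 ± 0.17 and -0.55 ± 0.27, adjusted p = 0.0953 and 0.108). The non-ATPase genes whose arrays did not overlap between fractions numbered 11 in mimic rats and 7 in control rats, all lower in synaptoneurosomes. Of all tested genes, 25.4% in mimic rats and 17.5% in control rats were lower without overlap.

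In mimic rats, Psmd8, a subunit of the lid of the cap, read 8.18, 8.12, 8.09, 8.18 and 8.41 in synaptoneurosomes, against 9.37, 9.34, 9.22, 9.20 and 9.27 in homogenate. In control rats, Psmd8 read 7.91, 8.28, 8.11, 8.34 and 8.39 in synaptoneurosomes, against 9.15, 9.27, 9.35, 9.25 and 9.34 in homogenate. Every synaptoneurosome array was below every homogenate array in both treatments, with means of 8.20 in mimic and 8.21 in control synaptoneurosomes, and of 9.28 in mimic and 9.27 in control homogenate. Psmd8 had a log2 difference of -1.08 ± 0.08 in mimic rats (limma, adjusted p = 3.28e-08) and -1.07 ± 0.08 in control rats (adjusted p = 5.43e-08). In mimic rats, Psmd11, a scaffold subunit of the lid, read 9.46, 9.48, 9.43, 9.31 and 9.51 in synaptoneurosomes, against 10.39, 10.27, 10.21, 10.24 and 10.23 in homogenate. In control rats, Psmd11 read 9.44, 9.71, 9.27, 9.63 and 9.56 in synaptoneurosomes, against 10.24, 10.26, 10.24, 10.31 and 10.31 in homogenate. Homogenate arrays of Psmd11 lay close together, and the fractions did not overlap in either treatment. Psmd11 had a log2 difference of -0.83 ± 0.07 in mimic rats (limma, adjusted p = 8.19e-08) and -0.75 ± 0.07 in control rats (adjusted p = 3.61e-07). In mimic rats, Psmd13, a lid subunit as well, read 9.42, 9.55, 9.39, 9.24 and 9.57 in synaptoneurosomes, against 10.46, 10.39, 10.31, 10.37 and 10.39 in homogenate. In control rats, Psmd13 read 9.16, 9.54, 9.08, 9.65 and 9.60 in synaptoneurosomes, against 10.21, 10.36, 10.39, 10.52 and 10.28 in homogenate. The fractions did not overlap here either. Psmd13 had a log2 difference of -0.95 ± 0.10 in mimic rats (limma, adjusted p = 1.16e-06) and -0.95 ± 0.10 in control rats (adjusted p = 1.56e-06). In mimic rats, Psmd4, a receptor for ubiquitin chains, read 8.88, 9.0, 8.91, 8.64 and 8.91 in synaptoneurosomes, against 9.72, 9.81, 9.55, 9.77 and 9.63 in homogenate. In control rats, Psmd4 read 8.61, 9.18, 8.78, 8.88 and 9.23 in synaptoneurosomes, against 9.61, 9.46, 9.27, 9.59 and 9.61 in homogenate. All synaptoneurosome arrays of Psmd4 were below the homogenate arrays of the same treatment. Psmd4 had a log2 difference of -0.83 ± 0.11 in mimic rats (limma, adjusted p = 9.71e-06) and -0.57 ± 0.11 in control rats (adjusted p = 0.000432). Psmd14, the enzyme that cuts ubiquitin chains off the substrate, had log2 differences of -0.66 ± 0.11 in mimic rats (adjusted p = 0.000145) and -0.42 ± 0.11 in control rats (adjusted p = 0.00669).

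**Figure D2:**
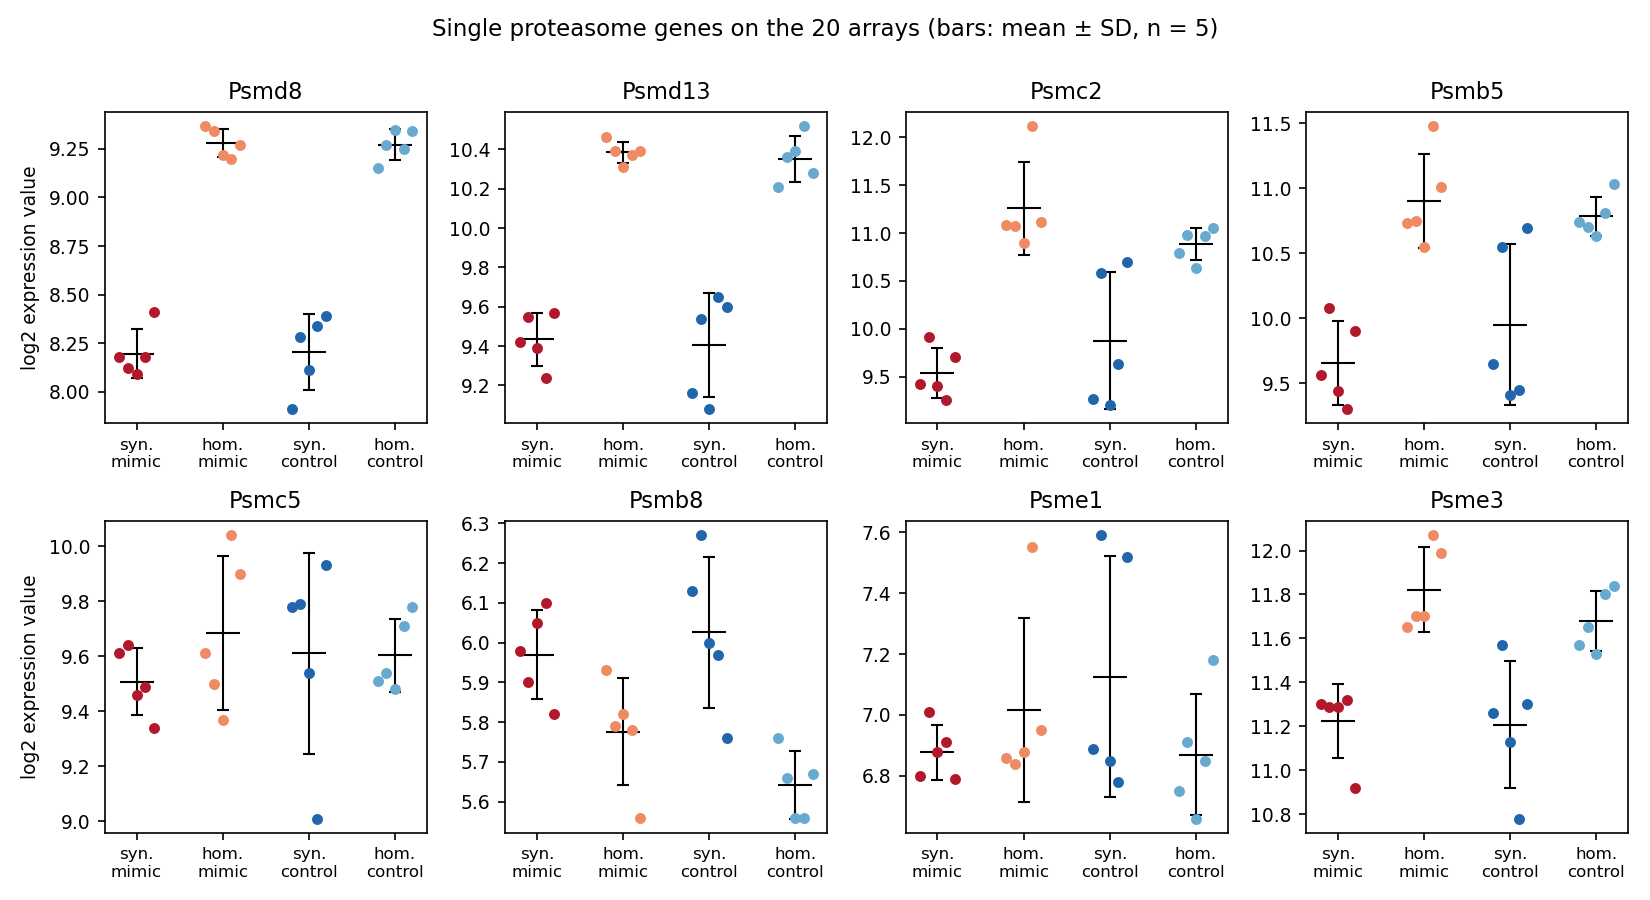
Log2 expression values (y axis, one scale per panel) of 8 genes on the 20 arrays, with arrays 1 to 5 of a group from left to right, in synaptoneurosome (syn.) and homogenate (hom.) arrays of mimic rats and then of control rats; bars give mean ± SD (n = 5). Synaptoneurosome arrays of Psmd8 (7.91 to 8.41) lie below all homogenate arrays (9.15 to 9.37), while the groups of Psmc5 overlap.

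Chaperones that assemble the cap and the core leave the finished proteasome. Of the 3 cap chaperones, Psmd5 fell in both treatments, and Psmd9 and Psmd10 did not pass. In mimic rats, Psmd5, which holds an ATPase during assembly, read 6.88, 6.70, 6.85, 6.70 and 6.74 in synaptoneurosomes, against 7.60, 7.49, 7.62, 7.82 and 7.28 in homogenate. In control rats, Psmd5 read 6.81, 6.95, 6.74, 6.97 and 6.95 in synaptoneurosomes, against 7.35, 7.33, 7.47, 7.51 and 7.32 in homogenate. Its fractions did not overlap in either treatment. Psmd5 had a log2 difference of -0.79 ± 0.08 in mimic rats (limma, adjusted p = 9.22e-07) and -0.51 ± 0.08 in control rats (adjusted p = 0.000101). Psmd9 had log2 differences of -0.16 ± 0.11 in mimic rats (adjusted p = 0.23) and -0.18 ± 0.11 in control rats (adjusted p = 0.192), and it passed in both with replicate numbers as a block. Psmd10 had -0.27 ± 0.14 (adjusted p = 0.145) in mimic rats and -0.14 ± 0.14 (adjusted p = 0.466) in control rats. Of the 4 core chaperones, Psmg3 fell in both treatments (log2 differences -0.26 ± 0.07 in mimic rats, adjusted p = 0.00642, and -0.21 ± 0.07 in control rats, adjusted p = 0.0274). Psmg4 fell in mimic rats (-0.30 ± 0.10, adjusted p = 0.0175), and in control rats it had -0.22 ± 0.10 (adjusted p = 0.0729). Psmg1 and Psmg2 did not pass in either treatment, and Psmg2 passed in mimic rats with replicate numbers as a block.

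Activators dock on the core in place of the cap. Of the 4, Psme3 fell in both treatments, and Psme1, Psme2 and Psme4 did not pass. In mimic rats, Psme3, a mostly nuclear activator, read 11.30, 11.29, 11.29, 11.32 and 10.92 in synaptoneurosomes, against 11.65, 11.70, 11.70, 12.07 and 11.99 in homogenate. In control rats, Psme3 read 11.26, 11.57, 11.13, 10.78 and 11.30 in synaptoneurosomes, against 11.57, 11.65, 11.53, 11.80 and 11.84 in homogenate. The fractions did not overlap in mimic rats, and in control rats synaptoneurosome array 2 reached into the homogenate range. Psme3 had a log2 difference of -0.60 ± 0.13 in mimic rats (limma, adjusted p = 0.000909) and -0.47 ± 0.13 in control rats (adjusted p = 0.00641). A dimmer probe set of Psme3, whose identifier carries another chromosome than the gene, had -0.32 in mimic rats and -0.06 in control rats.

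In mimic rats, Psme1, an interferon-inducible activator, read 6.80, 7.01, 6.88, 6.91 and 6.79 in synaptoneurosomes, against 6.86, 6.84, 6.88, 7.55 and 6.95 in homogenate. In control rats, Psme1 read 6.89, 7.59, 6.85, 6.78 and 7.52 in synaptoneurosomes, against 6.75, 6.91, 6.66, 6.85 and 7.18 in homogenate. The groups of Psme1 overlapped in both treatments. Its log2 difference was -0.14 ± 0.16 in mimic rats (adjusted p = 0.524) and 0.26 ± 0.16 in control rats (adjusted p = 0.22), and with quantile scaling it passed in control rats at 0.38. In mimic rats, Psme2, the partner of Psme1 in one ring, read 7.84, 8.37, 8.37, 8.02 and 7.76 in synaptoneurosomes, against 8.13, 7.78, 8.16, 8.84 and 8.08 in homogenate. In control rats, Psme2 read 8.30, 8.09, 7.73, 8.47 and 8.39 in synaptoneurosomes, against 8.18, 8.05, 8.39, 8.03 and 8.0 in homogenate. These groups overlapped too. The log2 difference of Psme2 was -0.13 ± 0.18 in mimic rats (adjusted p = 0.596) and 0.07 ± 0.18 in control rats (adjusted p = 0.787). The identifier of this probe set carries chromosome 1 and the gene lies on chromosome 15, and the dimmer set on chromosome 15 had -0.43 in mimic rats and -0.15 in control rats. In mimic rats, Psme4, an activator known for histone breakdown, read 10.08, 10.01, 10.0, 9.79 and 9.30 in synaptoneurosomes, against 10.09, 10.25, 10.16, 10.11 and 9.73 in homogenate. In control rats, Psme4 read 9.81, 10.14, 9.90, 9.45 and 9.23 in synaptoneurosomes, against 10.27, 10.18, 10.10, 10.07 and 9.70 in homogenate. The groups overlapped, and array 5 was the lowest of its group in each of the 4 groups. The log2 difference of Psme4 was -0.23 ± 0.17 in mimic rats (adjusted p = 0.29) and -0.36 ± 0.17 in control rats (adjusted p = 0.101), and it passed in control rats with replicate numbers as a block.

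Psmf1 encodes a protein first known as an inhibitor of the core, which in flies and mice links proteasomes to their transport in axons. In mimic rats, Psmf1 read 7.73, 7.55, 7.74, 7.70 and 8.07 in synaptoneurosomes, against 8.54, 8.55, 8.44, 8.67 and 8.43 in homogenate. In control rats, Psmf1 read 7.80, 7.96, 7.69, 7.89 and 8.10 in synaptoneurosomes, against 8.47, 8.54, 8.43, 8.41 and 8.52 in homogenate. Its fractions did not overlap in either treatment. Psmf1 had a log2 difference of -0.77 ± 0.09 in mimic rats (limma, adjusted p = 2.11e-06) and -0.59 ± 0.09 in control rats (adjusted p = 4.35e-05). Of the 3 symbols set apart from the subunits, Psme3ip1 fell in both treatments. In mimic rats, Psme3ip1 read 8.12, 8.20, 8.11, 8.04 and 7.97 in synaptoneurosomes, against 8.22, 8.32, 8.29, 8.16 and 8.27 in homogenate. In control rats, Psme3ip1 read 8.15, 8.12, 7.99, 7.88 and 7.85 in synaptoneurosomes, against 8.25, 8.23, 8.22, 8.23 and 8.24 in homogenate. Its mimic groups overlapped at 1 array of each fraction, and its control groups did not overlap. Psme3ip1 had a log2 difference of -0.16 ± 0.06 in mimic rats (limma, adjusted p = 0.0412) and -0.24 ± 0.06 in control rats (adjusted p = 0.00586). In mimic rats its call held in 2 of 10 fits that left out 1 array, and it was lost in both treatments with quantile scaling and with array medians set to 0. In mimic rats, Psmb3l2 read 6.40, 6.45, 6.44, 6.55 and 6.64 in synaptoneurosomes, against 6.52, 6.41, 6.63, 6.75 and 6.72 in homogenate. In control rats, Psmb3l2 read 6.49, 6.57, 6.47, 6.76 and 7.10 in synaptoneurosomes, against 6.92, 6.47, 6.64, 6.44 and 6.38 in homogenate. The groups of Psmb3l2 overlapped, with log2 differences of -0.11 ± 0.12 in mimic rats (adjusted p = 0.478) and 0.11 ± 0.12 in control rats (adjusted p = 0.482). By its symbol it is a copy of Psmb3, and whether the probe sets of the 2 share signal was not tested. Psmc3ip had -0.02 ± 0.05 in mimic rats and -0.05 ± 0.05 in control rats (adjusted p = 0.815 and 0.385).

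Across the 50 genes, arrays of the fractions did not overlap for 34 genes in mimic rats (background 25.4% of tested genes) and for 14 in control rats (background 17.5%), all lower in synaptoneurosomes. Medians of gene sets by array show how the arrays of a group varied. Each gene was first set relative to its mean in homogenate control. The median of the 31 core and cap genes was -0.82, -0.74, -0.85, -0.92 and -0.46 in the synaptoneurosome mimic arrays, against 0.05, 0.09, -0.09, 0.39 and 0.15 in the homogenate mimic arrays. In control rats it was -0.81, -0.35, -1.07, -0.59 and -0.10 in the synaptoneurosome arrays, against 0.03, 0.0, -0.21, 0.08 and 0.10 in the homogenate arrays. Synaptoneurosome control array 5, one of those that stood apart, was within the homogenate range, and array 2 was the next closest. The SD of this median was 0.18 in synaptoneurosome mimic and 0.17 in homogenate mimic, and 0.38 in synaptoneurosome control and 0.12 in homogenate control (n = 5 arrays each). Leaving out synaptoneurosome control array 5 raised the number of genes called in control rats to 36, and leaving out array 3 of that group lowered it to 21.

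**Figure D3:**
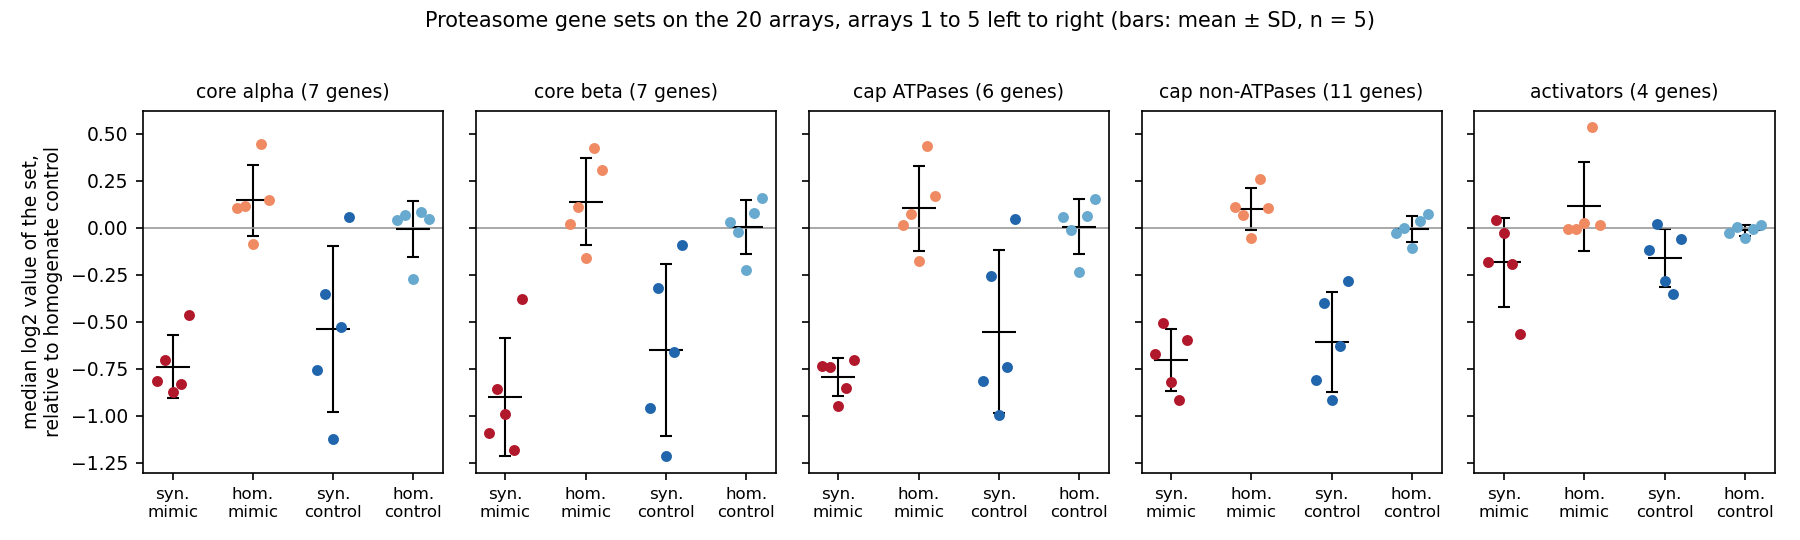
Median log2 value of each gene set (y axis, each gene relative to its homogenate control mean) on every array, in synaptoneurosome (syn.) and homogenate (hom.) arrays of mimic and control rats; bars give mean ± SD (n = 5). The core alpha set spans -0.88 to -0.47 in synaptoneurosome mimic and -0.08 to 0.45 in homogenate mimic arrays, and -1.13 to 0.06 in synaptoneurosome control and -0.27 to 0.09 in homogenate control arrays.

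Genes around the proteasome were counted from lists. The shares of all tested genes were 30.8% lower and 11.0% higher in mimic rats, and 28.0% lower and 11.8% higher in control rats. Of 23 tested accessory proteins, shuttle factors and regulators of proteasome expression, 15 fell and 3 rose in mimic rats, and 13 fell and 3 rose in control rats, with median log2 differences of -0.46 in mimic rats and -0.36 in control rats. Gpm6a and Gpm6b, membrane glycoproteins reported to anchor proteasomes in the neuronal plasma membrane, rose. Gpm6a had log2 differences of 0.91 ± 0.09 in mimic rats (adjusted p = 5.68e-07) and 1.05 ± 0.09 in control rats (adjusted p = 1.84e-07). Gpm6b had 0.59 ± 0.06 in mimic rats (adjusted p = 1.28e-06) and 0.74 ± 0.06 in control rats (adjusted p = 1.44e-07). Nfe2l1, given because its motif was counted above, also rose, while most core and cap genes fell. It had 0.22 ± 0.09 in mimic rats (limma, adjusted p = 0.0469) and 0.25 ± 0.09 in control rats (adjusted p = 0.0253). Its part in the levels of the proteasome genes was not tested. Txnl1, a thioredoxin-like protein bound to the cap, had -1.04 ± 0.11 in mimic rats (adjusted p = 1.02e-06) and -0.81 ± 0.11 in control rats (adjusted p = 1.63e-05). Rad23b, which carries ubiquitylated proteins to the cap, had -0.73 ± 0.10 in mimic rats (adjusted p = 1.11e-05) and -0.79 ± 0.10 in control rats (adjusted p = 5.58e-06).

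Of 22 tested genes of ubiquitin, its enzymes and the p97 complex, 16 fell and 2 rose in mimic rats, and 16 fell and 1 rose in control rats, with medians of -0.50 in mimic rats and -0.37 in control rats. Ube2d1, a ubiquitin-conjugating enzyme, had log2 differences of -1.32 ± 0.11 in mimic rats (adjusted p = 6.51e-08) and -1.0 ± 0.11 in control rats (adjusted p = 1.74e-06). Ube2n, which builds non-degradative ubiquitin chains, had -1.05 ± 0.08 in mimic rats (adjusted p = 4.89e-08) and -0.74 ± 0.08 in control rats (adjusted p = 2.57e-06). Nsfl1c, a p97 cofactor, had -0.94 ± 0.10 in each treatment (adjusted p = 1.41e-06 in mimic rats and 1.72e-06 in control rats).

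Other large complexes are given for comparison as counts. Beside them, 30.8% of all tested genes fell and 11.0% rose in mimic rats, and 28.0% fell and 11.8% rose in control rats. Of 182 tested genes of cytosolic ribosomal proteins, 8 fell and 7 rose in mimic rats, and 5 fell and 21 rose in control rats, with medians of -0.02 in mimic rats and 0.18 in control rats. Of 82 tested subunits of oxidative phosphorylation, 62 fell and 0 rose in mimic rats, and 33 fell and 1 rose in control rats, with medians of -0.63 in mimic rats and -0.31 in control rats. The proteasome medians of -0.77 in mimic rats and -0.46 in control rats were lower than both sets' medians in each treatment, an order that was not tested.

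The mimic itself was compared with the scrambled control within each fraction. In synaptoneurosomes, 0 of the 50 genes passed (limma, background 0%), and 2 had an unadjusted p under 0.05 (background 3.50%). In homogenate, 0 of 50 passed (background 0%), and 0 had an unadjusted p under 0.05 (background 1.73%). The median log2 difference, mimic minus control, was -0.14 in synaptoneurosomes and 0.10 in homogenate, where the medians of all tested genes were -0.01 and 0.02. In synaptoneurosomes 41 of 50 genes were below 0, where 8362 of the 15465 tested genes were. In homogenate 46 of 50 were above 0, where 9166 of the 15465 were. Other sets moved beside them: the median of the 7 interneuron markers was -0.39 in synaptoneurosomes and 0.13 in homogenate, that of the 8 markers of mural cells and fibroblasts was -0.35 in synaptoneurosomes and -0.03 in homogenate, and that of the 82 oxidative phosphorylation subunits was -0.17 in synaptoneurosomes and 0.11 in homogenate. Their part in the shift of the proteasome genes was not tested. Leaving out synaptoneurosome control array 5 moved the first median to -0.06, and leaving out homogenate mimic array 4 moved the second to 0.03.

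The 2 genes with an unadjusted p under 0.05 in synaptoneurosomes were Psma3 and Psma7. From the values by array above, Psma3 averaged 9.42 ± 0.21 in synaptoneurosome mimic and 9.69 ± 0.30 in synaptoneurosome control (SD, n = 5 each), a log2 difference of -0.27 ± 0.12 by limma. Psma7 averaged 7.47 ± 0.10 in synaptoneurosome mimic and 7.72 ± 0.26 in synaptoneurosome control (SD, n = 5 each), a log2 difference of -0.25 ± 0.11. Arrays of the 2 treatments overlapped for both genes. The adjusted p of every gene was at least 0.933 in synaptoneurosomes and was 1 in homogenate. The catalytic subunits Psmb6 and Psmb5 had larger errors than Psma3 and Psma7. Psmb6 had -0.37 ± 0.25 in synaptoneurosomes and 0.31 ± 0.25 in homogenate, and Psmb5 had -0.29 ± 0.24 in synaptoneurosomes and 0.12 ± 0.24 in homogenate. By role, medians in synaptoneurosomes were -0.21 for the alpha ring, -0.28 for the constitutive beta ring, -0.22 for the ATPases, -0.10 for the non-ATPases and -0.05 for the activators. In homogenate they were 0.14 for the alpha ring, 0.12 for the constitutive beta ring, 0.10 for the ATPases, 0.11 for the non-ATPases and 0.11 for the activators.

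**Figure D4:**
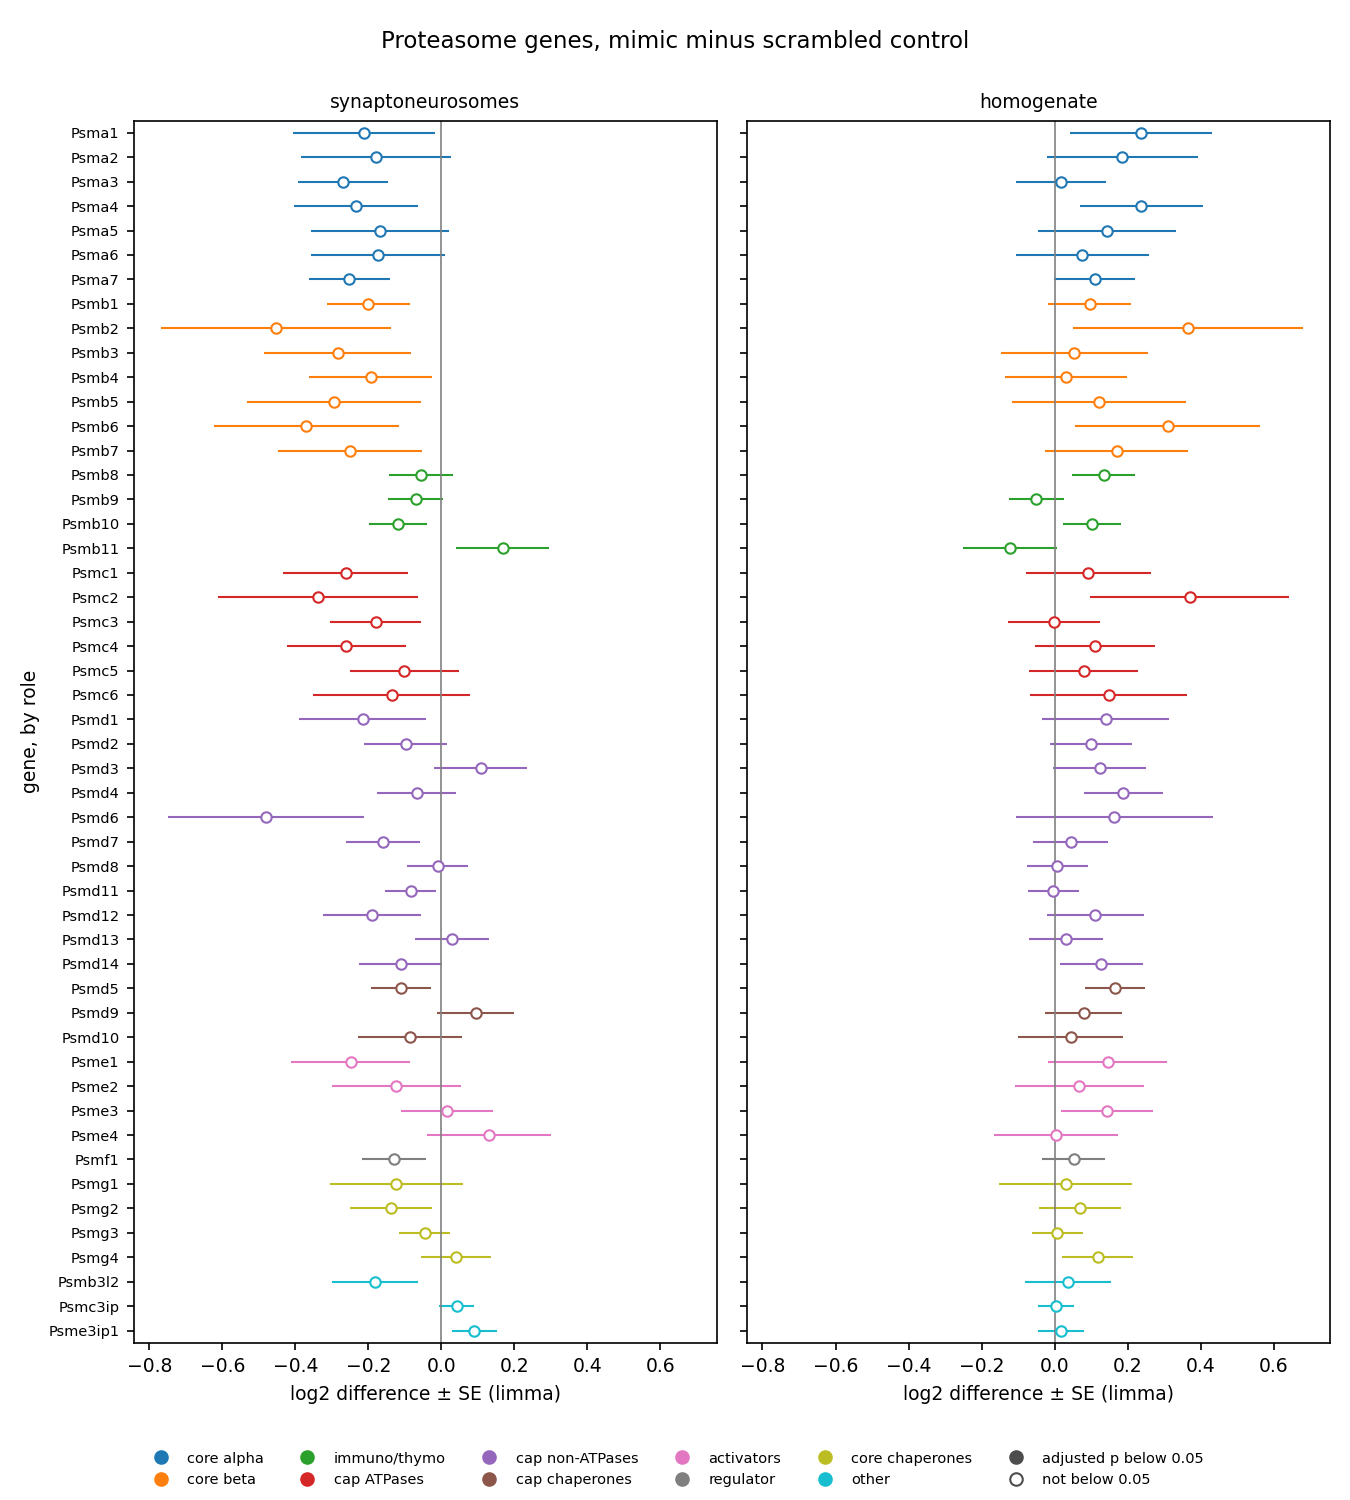
Log2 differences (x axis, limma estimate ± SE, 5 against 5 arrays) of the 50 tested genes, mimic minus scrambled control, in synaptoneurosomes on the left and in homogenate on the right, with genes by role down the page. All points are open, since 0 of 50 genes passed in either fraction.

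Whether the mimic effect differed between fractions was tested as an interaction, synaptoneurosomes minus homogenate, over all 4 groups. Again 0 of 50 genes passed (background 0%), with adjusted p of at least 0.998, and 2 had an unadjusted p under 0.05 (background 1.57%). These were Psma7 (-0.36 ± 0.16) and Psmd5 (-0.28 ± 0.12). The median over the 50 genes was -0.22, against -0.03 over all tested genes, and 45 of the 50 genes and all 31 tested core and cap genes were below 0, where 8942 of the 15465 tested genes were. The median of the 82 oxidative phosphorylation subunits was -0.28 in the same test and that of the 7 interneuron markers was -0.42, both lower than that of the proteasome genes. This is the same quantity as the fraction difference in mimic rats minus that in control rats, so the lower medians in mimic rats are not a separate result. The genes called in mimic rats and not in control rats were Psma1, Psma2, Psmb2, Psmb7, Psmc4, Psmd1, Psmd6 and Psmg4, and none of these 8 passed in the test of the difference. Psmb2 had the lowest value among them, -0.82 ± 0.45. Leaving out synaptoneurosome control array 5 moved the median of the difference to -0.14. Without that array, Psma1, Psma2, Psmb2, Psmb7, Psmc4, Psmd1 and Psmd6 were called in control rats too, and Psmg4 was not. The same held with array weights and without the 3 arrays that stood apart, so the list depends on these arrays.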

How the data were processed

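The authors deposited a table of log2 expression values with 1 column per array (20 arrays) and 68842 probe sets. The submitters' processing notes name RMA and Transcriptome Analysis Console, whose versions the sources used here do not give. RMA corrects background, gives arrays a common distribution and summarises probes on the log2 scale, which compresses differences of dim transcripts. Deposited values were used unscaled; array medians were 5.11 to 5.26. The number of arrays limits the precision, and levels are never compared between probe sets.

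Groups and replicate numbers came from the sample titles. Gene symbols are those of the array's annotation and can be outdated: 23446 probe sets had 1 symbol, 505 several and 44891 were unnamed here; 22077 matched a current gene table, which updated 1 symbol. The brightest probe set stood for its gene, and the dimmest 30% of genes by mean were left out. No replicates of a group were duplicates, with mean absolute log2 differences of at least 0.15.

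Tests were fitted with limma 3.58.1 (R 4.3.3) over all 15465 genes and 20 arrays, with 4 group means (16 residual and 2.56 prior degrees of freedom), two-sided, adjusted by Benjamini-Hochberg, threshold 0.05. Errors after ± are limma standard errors unless called SD; they pool the spread of the 4 groups, which was larger in synaptoneurosomes, so those of mimic against control in synaptoneurosomes can be too small. The fits were tested on simulated data. Tables and plots used Python 3.11.15.

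The members, the lists and the rule for values by array were chosen with earlier results of these data known. The rule takes the 4 members with the largest moderated t in each direction for each fraction comparison, the 2 for each mimic comparison and for the difference, the catalytic subunits and the activators. Lists covered accessory, ubiquitin, antigen-processing, ribosomal and oxidative phosphorylation genes, and markers of cell types and nuclear RNA. Of the other marker lists, oligodendrocytes had 0 of 6 markers higher and 1 lower in each treatment, choroid plexus 0 of 5 higher in each and 0 lower in mimic and 1 lower in control rats, blood 0 of 3 in either direction, and leukocytes 1 of 1 higher in each. Choroid plexus markers averaged 7.69 in synaptoneurosome mimic array 5 and 7.60 in homogenate mimic array 5. The other arrays of these groups had 5.38 to 5.57, and the control arrays 5.42 to 5.65. The part of this tissue in the values of array 5 was not tested.

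Same-numbered synaptoneurosome and homogenate arrays deviated together from their group means, with r across genes of 0.10 to 0.35 in mimic rats and 0.24 to 0.48 in control rats. Each was best with its own number, so the numbers were taken to pair the fractions. A shared animal and shared processing by number cannot be told apart here. Alternatives changed the filter, the scaling, the moderation, the arrays used, the probe set rule and the block; their effect is given at the end.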

Additional observations from a re-analysis of the deposited data

Results flagged for a closer look

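Values by array were searched for single arrays far from the other 4 of their group, in 116 sets of 5 arrays (21 genes and the set medians by role, in 4 groups). Chance flags about 1 in 20 such sets, and 8 were found. The median of the alpha ring was -0.27 in homogenate control array 3, relative to the homogenate control means, where the other arrays had 0.04 to 0.09. The median of the activators was 0.54 in homogenate mimic array 4, where the others had -0.01 to 0.03. Psme1 read 7.55 in the same array, with the others at 6.84 to 6.95. Psma7 read 7.65 in synaptoneurosome mimic array 2 (others 7.40 to 7.47). Psmd8 read 8.41 in synaptoneurosome mimic array 5 (others 8.09 to 8.18), and Psme3 read 10.92 there (others 11.29 to 11.32). Psmb9 read 5.05 in homogenate mimic array 1 (others 4.85 to 4.89). Psmb11 read 6.67 in homogenate control array 2 (others 7.08 to 7.14). No difference of the mimic effect between fractions passed for any member (limma, 0 of 50 genes, 2 with an unadjusted p under 0.05).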

How the results depend on the processing

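Counts of genes called stayed within 1.5 times under every alternative run: 35 to 39 against 36 in mimic rats and 21 to 36 against 29 in control rats, for synaptoneurosome against homogenate. Fits that left out 1 array gave 35 to 36 in mimic rats and 21 to 36 in control rats. In control rats the calls of Psma4, Psma6, Psmb3, Psmb6, Psmc1, Psmc6, Psmd12 and Psmg3 were lost in at least 1 of these 10 fits (those without homogenate control arrays 1, 2, 4 and 5 and synaptoneurosome control arrays 1, 3 and 4), and without synaptoneurosome control array 3 all 8 were lost. In mimic rats the call of Psme3ip1 was lost in 8 of 10 fits, all but those without homogenate mimic array 4 and synaptoneurosome mimic array 2, and that of Psmg4 without homogenate mimic array 4. The median difference was -0.81 to -0.70 in mimic rats and -0.56 to -0.35 in control rats over these fits. For mimic against control it was -0.24 to -0.06 in synaptoneurosomes and 0.03 to 0.14 in homogenate, and for the difference of the mimic effect -0.29 to -0.14. Without synaptoneurosome control array 3 the synaptoneurosome median was -0.24, and without the 3 arrays that stood apart it was -0.07; array weights gave -0.08, and 0.05 in homogenate.

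Quantile scaling moved the median in mimic rats to -0.60, and setting array medians to 0 moved the median of all tested genes there by 0.11, to 0.02, and that of the members to -0.67. Both medians then differed by -0.69, as before. The share of higher among all called genes was 26.3% in mimic rats and 29.6% in control rats, against 41.6% and 39.6% with quantile scaling and 48.3% and 46.7% with array medians set to 0. Fitting only the arrays compared gave 36 in mimic rats and 22 in control rats.

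Pairing by number, as a block, gave 38 calls in mimic rats and 34 in control rats; beside those named in the report it changed no other call. Mimic and control arrays of the same number had r of -0.30 to 0.83 in synaptoneurosomes and 0.02 to 0.41 in homogenate. Mimic arrays 1, 2, 3 and 5 in synaptoneurosomes, and 3 and 5 in homogenate, were best with the control array of their own number. What the number marks across treatments was not tested, and the block gave 0 calls in either fraction.

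Leaving aside the fits that left out 1 array, values of genes that were not called changed sign in 10 fits, and 1 called gene did too. In control rats these were Psmb11 with quantile scaling (0.0137), Psmb3l2 with array weights (-0.00326) and without the 3 arrays that stood apart (-0.06), and Psme2 with array weights (-0.0413), with the mean of all probe sets (-0.042) and without the 3 arrays (-0.09). In mimic rats they were, with quantile scaling, Psmb3l2 (0.0339), Psme1 (0.0431), Psme2 (0.10) and Psme3ip1 (0.0524, called in the reported fit), and Psme2 with array weights (0.0904). The cause was not tested. Of the other values that were followed, 450 kept direction and call, 7 lost the call and 14 gained it. Genes that were not followed also changed sign. Setting array medians to 0 moved every difference by 0.106 in mimic rats and 0.076 in control rats. That turned Psmc3ip (-0.016 in mimic and -0.054 in control rats) positive in both. Fits that left out 1 array are not in these counts and changed further signs of small differences. Examples are Psmb10 in control rats (0.03, lowest -0.0035) and Psme2 in mimic rats (-0.13, highest 0.0345).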
